A study of Mus musculus with 6 samples.

Results

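The clustered protocadherin genes are adhesion genes of the cadherin superfamily that lie side by side on mouse chromosome 18. They were chosen as the protein-coding genes of GENCODE M21 whose symbol starts with Pcdha, Pcdhb or Pcdhg, which gave 57 of the 54532 genes in the table: 14 alpha, 22 beta and 21 gamma genes. All 57 are on the plus strand. On GRCm38 the alpha genes span 36930184 to 37187661, the beta genes 37264938 to 37524479 and the gamma genes 37661793 to 37841873. Pcdhgb8, annotated as a polymorphic pseudogene, was left out and averaged 0.370 FPKM (fragments per kilobase of gene, scaled to library depth).

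Brain RNA at postnatal day 15 was sequenced in 3 Angptl2-/- and 3 Angptl2+/+ samples, numbered 1 to 3 in each genotype, to ask which genes differ without ANGPTL2, a secreted angiopoietin-like protein. The Angptl2-/- mice lack exon 2 of Angptl2 and derive from C57BL/6 males that carried the floxed gene and Stra8-cre, a Cre active in the male germ line, bred with wild-type females. Angptl2+/+ mice carry the intact gene, and the labels name no treatment. The labels give all cell types of the brain and do not say how the tissue was dissected or that each sample was a different animal. The p-values therefore measure the spread between samples, which may be partly technical.

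Clustered protocadherins sit mainly on neurons, where each isoform binds its own kind on the facing membrane. Each neuron uses a small set of isoforms, chosen by its promoters, and the combination gives the cell an identity that its own branches recognise and avoid. In the alpha and gamma clusters a gene is 1 variable first exon with its own promoter, spliced to constant exons at the end of the cluster that encode a common intracellular part. The beta genes have no constant exon. The last genes of the alpha and gamma clusters (Pcdhac1, Pcdhac2, Pcdhgc3, Pcdhgc4 and Pcdhgc5) are the C-type genes, which are used more evenly from neuron to neuron than the others.

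Across the libraries, 17127272 to 18928920 fragments were recovered from the FPKM values, and the clustered protocadherins took 642 to 680 fragments per 1e6 in Angptl2-/- and 617 to 683 per 1e6 in Angptl2+/+ samples. Angptl2 itself was at 0.166, 0.320 and 0.126 FPKM in Angptl2-/- samples 1 to 3, against 0.660, 0.958 and 0.290 FPKM in Angptl2+/+ samples 1 to 3. These values rest on 20, 34 and 13 fragments in Angptl2-/- and 74, 107 and 31 in Angptl2+/+, and the genotypes overlap at Angptl2-/- sample 2 and Angptl2+/+ sample 3. The gene averaged under the filter of 0.5 FPKM and was not tested. Xist, a marker of female samples, was at 42.2 FPKM in 1 Angptl2-/- sample and at 27.4 and 27.9 FPKM in 2 Angptl2+/+ samples, and at 0.0697 FPKM or less in the others. Each genotype thus held samples of both sexes, so its samples did not all come from 1 animal. No test adjusts for the imbalance of sex between the genotypes. The 10 neuron markers, which include Snap25 and Rbfox3, summed to 1493 to 1514 FPKM in Angptl2-/- and 1342 to 1511 FPKM in Angptl2+/+. The sum does not show the single markers: 6 of the 10 were higher on average in Angptl2-/- and 4 lower. Every Angptl2-/- library lay below every Angptl2+/+ library for 2 of them (Rbfox3 and Syp) and above for 2 (Map2 and Stmn2). Over all genes tested, every Angptl2-/- library lay below for 11.8% and above for 10.7%. With 10 markers, the counts are too small to tell apart from these shares. Angptl2+/+ sample 1 stood apart: its 10 cerebellum markers summed to 199 FPKM, against 64.0 to 70.4 FPKM in Angptl2-/- and 76.6 and 83.4 FPKM in the other Angptl2+/+ samples, and its striatum markers were lowest at 78.2 FPKM. Choroid plexus markers summed to 179 to 1126 FPKM in Angptl2-/- and 47.5 to 69.9 FPKM in Angptl2+/+, and striatum markers to 165 to 317 FPKM in Angptl2-/- and 78.2 to 177 FPKM in Angptl2+/+. Myelinating oligodendrocyte markers summed to 600, 806 and 1105 FPKM in Angptl2-/- and 1912, 949 and 931 FPKM in Angptl2+/+ samples 1 to 3. The high end was thus Angptl2+/+ sample 1 alone, and the other Angptl2+/+ samples lay within the Angptl2-/- range. Markers of red blood cells summed to 125 to 274 FPKM in Angptl2-/- and 302 to 498 FPKM in Angptl2+/+. The median log2 difference was 1.65 over the 10 choroid plexus genes tested, 1.34 over the striatum, -0.71 over the cerebellum, -0.62 over the myelinating oligodendrocyte and -1.08 over the red blood cell list. It was 0.11 over the neuron, -0.46 over the astrocyte, -0.29 over the oligodendrocyte precursor, -0.09 over the microglia and -0.14 over the endothelium list. The part of these regional and cell type differences in the values below was not tested. In bulk tissue, fewer cells of a type and less RNA per cell cannot be told apart.

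The shared exons set what an FPKM value of an alpha or gamma gene means. Alpha genes shared 48.6 to 93.0% of their exon bases with other genes (median 53.6%) and gamma genes 31.5 to 100% (median 45.2%), while 19 of the 22 beta genes shared none. The exceptions were Pcdhb12, 63.5% of which lies opposite the antisense gene Gm37446, and Pcdhb21 and Pcdhb22, which overlap each other over 9.67% and 6.88% of their bases. Over the whole table, 277 of 302 genes of at least 500 bases with no exon base free of other genes were at 0 fragments (91.7%), against 17.2% of 21207 protein-coding genes with at least 500 free bases. Of the 302 genes, 152 had at least 500 bases free on their own strand, and 147 of them were at 0 too (96.7%). Genes without exon sequence of their own, on either strand, thus mostly received no fragments, while the exon length that divides the fragments includes the shared bases. Some such genes did receive fragments (25 of the 302). Each level was therefore also divided by the unshared exon length alone, for the genes with at least 500 such bases.

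3 members with much of their exon sequence shared were near 0. Pcdha4 had 9 fragments in the 6 libraries together and 404 unshared bases of 5768, because it overlaps the readthrough gene Gm42416 and the antisense gene Gm38225. Pcdhga10 had 15 fragments and no base free of Gm26672, on the opposite strand, and of other gamma genes. The Pcdha11 row ENSMUSG00000102206 had 7 fragments and 1268 unshared bases of 7535, which is no fewer than for Pcdhga11, with 1567 fragments and 1256 unshared bases. How much of their transcripts the table missed was not tested. A second row carries the symbol Pcdha11 (ENSMUSG00000007440, 37005203 to 37187657), and RefSeq places a gene it names Pcdha10 within that span. It is written here as Pcdha11 with its identifier. By contrast, Pcdhb1 shared no exon base and still had 12 fragments over all libraries, or 0.0444 FPKM, and Pcdha8 had 88 fragments with 2478 unshared bases.

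**Figure D1:**
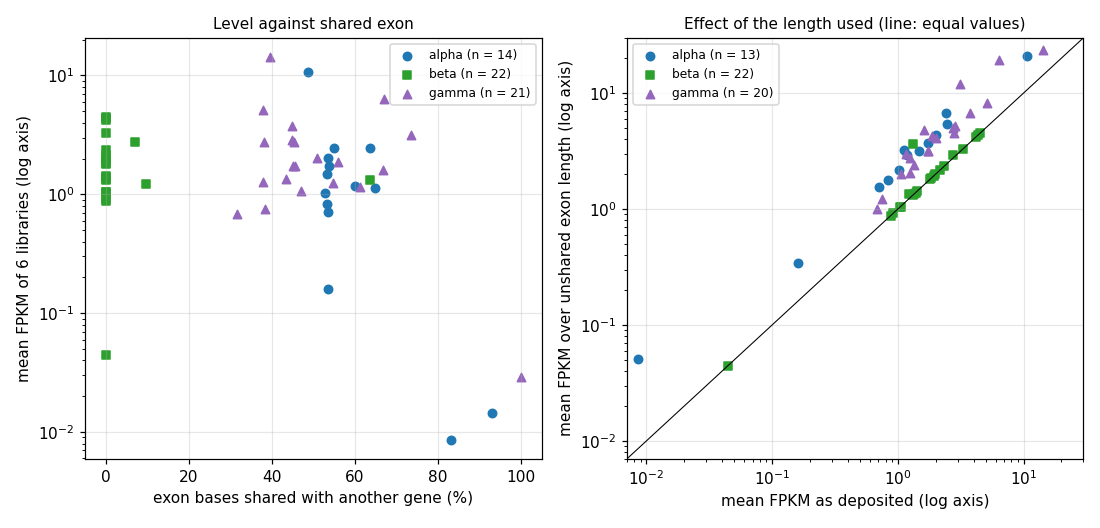
Left, mean FPKM of the 6 libraries (log axis) against the percent of exon bases shared with another gene. Right, mean FPKM over the unshared exon length against mean FPKM as deposited (both log axes), for the 55 genes with at least 500 unshared bases. Every alpha and gamma point lies above the line of equal values, most beta points lie on it, and the genes sharing 83.2 to 100% of their exon bases are near 0 on the left.

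In the alpha cluster 1 gene, Pcdhac2, had by far the highest level. Pcdhac2 is the last alpha gene, which serotonergic neurons need to space their axons. It had 9.85, 11.1 and 10.9 FPKM in Angptl2-/- samples 1 to 3 and 8.98, 10.95 and 12.5 FPKM in Angptl2+/+ samples 1 to 3. It took 43.0% ± 2.36 of the alpha fragments in Angptl2-/- and 44.6% ± 2.52 in Angptl2+/+ (SD, n = 3 each). The highest variable genes without a C-type exon were Pcdha5 and Pcdha12. Pcdha5 had 2.65, 2.80 and 2.56 FPKM in Angptl2-/- and 1.51, 2.89 and 2.32 FPKM in Angptl2+/+, and Pcdha12 had 2.93, 2.74 and 1.76 FPKM in Angptl2-/- and 2.54, 2.33 and 2.30 FPKM in Angptl2+/+. The genotypes overlapped for all 3. The 7 serotonergic markers summed to 10.4, 8.97 and 10.8 FPKM in Angptl2-/- and 21.1, 12.2 and 8.71 FPKM in Angptl2+/+. Much of each sum was the receptor gene Htr1a, at 6.70, 5.25 and 6.18 FPKM in Angptl2-/- and 7.50, 7.96 and 5.54 FPKM in Angptl2+/+. Slc6a4, Fev and Gata3 averaged under 0.5 FPKM, so the sum is a weak measure of these neurons. The other C-type alpha gene, Pcdhac1, was lower at 0.741, 1.17 and 1.22 FPKM in Angptl2-/- and 1.09, 0.644 and 1.33 FPKM in Angptl2+/+. Over the unshared length, Pcdhac2 averaged 20.7 ± 1.33 FPKM in Angptl2-/- and 21.02 ± 3.42 FPKM in Angptl2+/+ (SD, n = 3 each), and remained first, followed by Pcdha12 and then Pcdha5. The mean levels of the 11 alpha genes tested ran from 0.713 to 10.7 FPKM.

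The beta cluster had no such leader. Its levels ran from 0.876 to 4.49 FPKM over the 21 genes tested. Pcdhb20 had 4.63, 4.29 and 5.30 FPKM in Angptl2-/- and 4.39, 4.22 and 4.10 FPKM in Angptl2+/+. Pcdhb9 had 4.39, 4.79 and 4.54 FPKM in Angptl2-/- and 4.70, 4.35 and 3.34 FPKM in Angptl2+/+. Pcdhb17 had 4.64, 4.03 and 4.57 FPKM in Angptl2-/- and 4.03, 4.22 and 3.72 FPKM in Angptl2+/+. These 3 genes differ from each other by less than the spread between libraries. The genes towards the end of the beta cluster tended to have the higher levels, with a Spearman correlation of 0.52 between order and mean FPKM over 22 genes. Without the near-0 first gene Pcdhb1 the correlation was 0.45 over 21 genes. Over whole clusters it was 0.16 for the 14 alpha genes and 0.39 for the 21 gamma genes. The 17 gamma genes left without the C-type genes and the near-0 Pcdhga10 gave 0.15. These points share libraries and, within alpha and gamma, exons, so the values describe the order only. Dividing by the unshared length moved Pcdhb12 from rank 16 to rank 4 of the beta cluster, at 3.63 FPKM.

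The gamma cluster was the most abundant. It held 50.5% ± 1.56 of the fragments of all members in Angptl2-/- and 50.4% ± 1.15 in Angptl2+/+ (SD, n = 3 each, here and for the other clusters). The alpha cluster held 21.5% ± 0.446 in Angptl2-/- and 22.0% ± 1.69 in Angptl2+/+, and the beta cluster 28.0% ± 1.92 in Angptl2-/- and 27.6% ± 2.69 in Angptl2+/+. These shares take fragments as counted and do not allow for the exon bases that alpha and gamma genes share. Over the unshared length the median level of the alpha genes was above that of the beta genes (given in the last section). The 3 C-type genes of the gamma cluster led. Pcdhgc5, whose protein binds the GABA-A receptor, had 13.6, 16.6 and 13.3 FPKM in Angptl2-/- and 9.96, 15.3 and 17.03 FPKM in Angptl2+/+. Pcdhgc3, whose intracellular part binds Axin1, had 6.16, 6.07 and 5.53 FPKM in Angptl2-/- and 7.77, 6.40 and 6.19 FPKM in Angptl2+/+. Pcdhgc4, the isoform that neurons need to survive in the postnatal mouse, had 6.51, 4.33 and 4.68 FPKM in Angptl2-/- and 5.61, 5.93 and 3.76 FPKM in Angptl2+/+. Of the 3, Pcdhgc3 alone had its genotypes apart, at 6.16 FPKM at the highest in Angptl2-/- against 6.19 FPKM at the lowest in Angptl2+/+, and median-ratio scaling of the libraries made them overlap. Together the 3 took 50.7, 51.6 and 48.5% of the gamma fragments in Angptl2-/- and 50.5, 53.4 and 55.2% in Angptl2+/+. The 12 genes of the A family took 35.5, 37.5 and 39.1% in Angptl2-/- and 36.3, 33.5 and 34.5% in Angptl2+/+, and the 6 of the B family 13.9, 10.9 and 12.4% in Angptl2-/- and 13.1, 13.2 and 10.4% in Angptl2+/+. Over the unshared length Pcdhga11 moved from rank 5 to rank 3 of the cluster, at 11.9 FPKM, behind Pcdhgc5 at 23.7 and Pcdhgc3 at 19.2 FPKM.

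**Figure D2:**
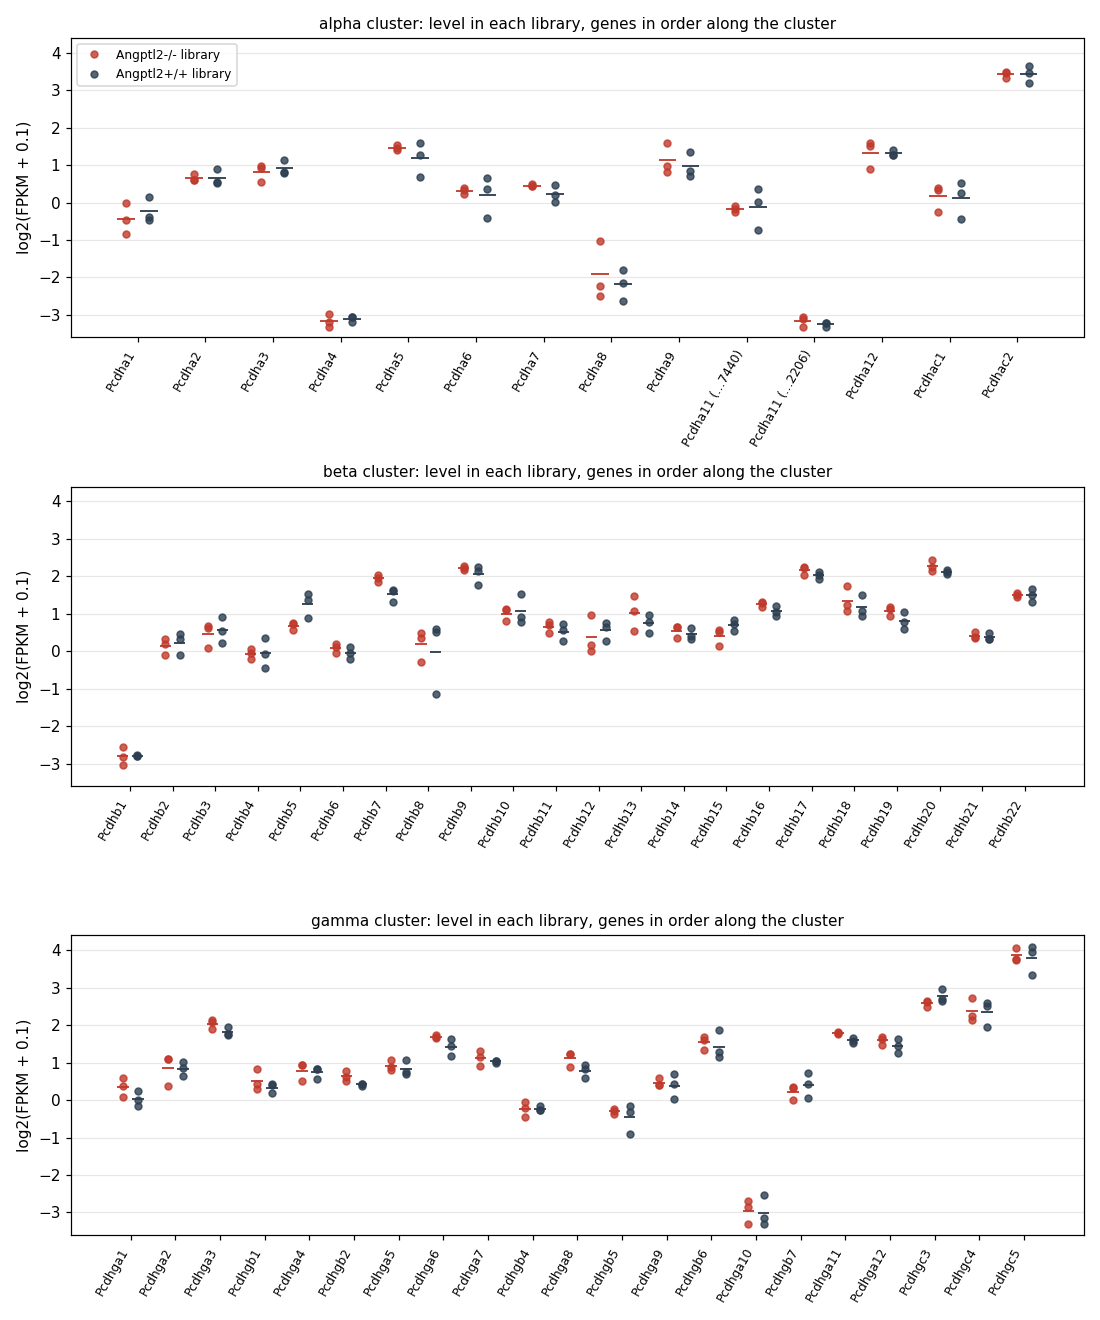
Level of each gene in each library as log2(FPKM + 0.1), in order along the alpha, beta and gamma clusters, with Angptl2-/- libraries on the left of each pair and Angptl2+/+ on the right; short lines are means (n = 3 each). Pcdhac2 and Pcdhgc3, Pcdhgc4 and Pcdhgc5 lead at the ends of their clusters, Pcdha4, Pcdha8, the lower Pcdha11 row, Pcdhb1 and Pcdhga10 lie lowest, and most pairs overlap.

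The variance of fragments within genotypes was divided by that of counting alone, giving an index that is 1 for counting error only and grows with the fragments of a gene. It had a median of 3.60 over the 52 tested members and 6.98 over all genes tested. The beta and gamma medians were 3.03 and 3.13, and the alpha median was 7.45. The index was highest for abundant C-type genes, with 79.8 for Pcdhgc5, 26.4 for Pcdhgc4 and 17.1 for Pcdhac2. Pcdhgc5 was lowest in Angptl2+/+ sample 1, the sample with the highest cerebellum markers. Without that sample its log2 difference was -0.16, against 0.07 with all 6 libraries.

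The comparison of genotypes asked whether clustered protocadherin transcripts differ in Angptl2-/- brains. None of the 52 tested members passed limma at an adjusted p under 0.05, in either direction, and nor did any of the 14862 genes (0% higher, 0% lower). At an unadjusted p under 0.05, 1 member was higher (Pcdhb7) against 7.09% of all genes, and 1 was lower (Pcdhb5) against 9.12%. voom on the recovered fragments likewise called none after adjustment and picked out the same 2 genes unadjusted. The smallest adjusted p of a member was 0.273. In 4 members (Pcdhb7, Pcdhgb2, Pcdhga6 and Pcdhga11) all Angptl2-/- libraries lay above all Angptl2+/+ libraries, against 10.7% of all genes, and in 2 (Pcdhb5 and Pcdhgc3) all lay below, against 11.8%. As shares of the 52 members, these 4 counts (1, 1, 4 and 2) were below the shares over all genes. Pcdha4, Pcdha8, Pcdha11 (ENSMUSG00000102206), Pcdhb1 and Pcdhga10 averaged under 0.5 FPKM and were not tested.

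Pcdhb7 had 3.99, 3.54 and 3.80 FPKM in Angptl2-/- and 2.93, 2.99 and 2.41 FPKM in Angptl2+/+. Its log2 fold change was 0.44 (SE 0.135, 95% interval 0.12 to 0.75, adjusted p = 0.273, limma). Pcdhb5 had 1.56, 1.59 and 1.38 FPKM in Angptl2-/- and 2.77, 1.77 and 2.48 FPKM in Angptl2+/+, a log2 difference of -0.58 (SE 0.199, 95% interval -1.04 to -0.11, adjusted p = 0.277). Pcdhb19, next of the beta genes by p, had 1.81, 2.10 and 2.18 FPKM in Angptl2-/- and 1.95, 1.42 and 1.63 FPKM in Angptl2+/+. Its genotypes overlapped (adjusted p = 0.442, limma). Pcdhb5 and Pcdhb7 lie a single gene apart in the cluster, with Pcdhb6 between them at 0.961 ± 0.0913 FPKM in Angptl2-/- and 0.875 ± 0.111 FPKM in Angptl2+/+ (SD, n = 3 each).

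The gamma genes with the smallest p were Pcdhga8, Pcdhga6 and Pcdhga11. Pcdhga8 had 1.75, 2.27 and 2.26 FPKM in Angptl2-/- and 1.41, 1.67 and 1.83 FPKM in Angptl2+/+ (log2 fold change 0.34, SE 0.179, adjusted p = 0.380, limma). Pcdhga6 had 3.22, 3.09 and 3.04 FPKM in Angptl2-/- and 2.98, 2.63 and 2.15 FPKM in Angptl2+/+ (0.27, SE 0.150, adjusted p = 0.396). Pcdhga11 had 3.41, 3.38 and 3.29 FPKM in Angptl2-/- and 2.78, 3.05 and 2.91 FPKM in Angptl2+/+ (0.20, SE 0.113, adjusted p = 0.406). The A-family genes Pcdhga6 and Pcdhga11 were higher in every Angptl2-/- library, yet neither difference passed the test. Pcdhgc3 had a log2 difference of -0.19 (SE 0.125, adjusted p = 0.458). In the alpha cluster the smallest p values belonged to Pcdha5 (adjusted p = 0.534), Pcdha7 (0.567) and Pcdha1 (0.783). Pcdha7 had 1.31, 1.25 and 1.25 FPKM in Angptl2-/- and 0.903, 1.28 and 1.05 FPKM in Angptl2+/+, and Pcdha1 had 0.458, 0.896 and 0.627 FPKM in Angptl2-/- and 0.659, 1.01 and 0.627 FPKM in Angptl2+/+.

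**Figure D3:**
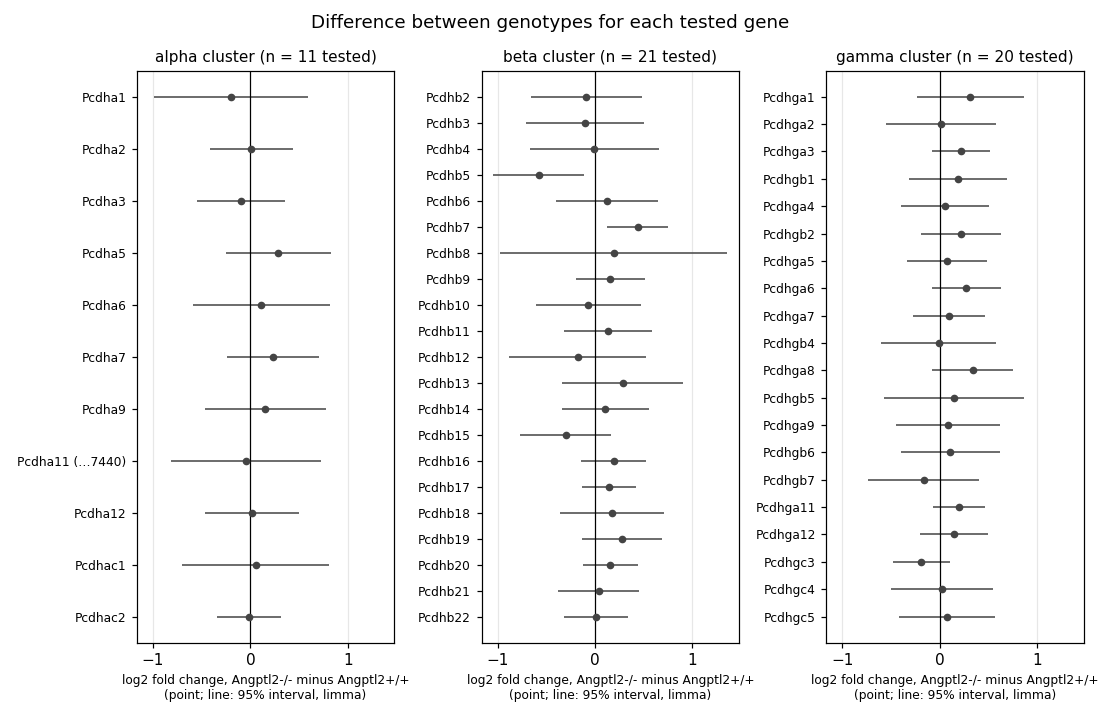
Log2 fold change of each tested gene, Angptl2-/- minus Angptl2+/+, with its 95% interval from limma, for 11 alpha, 21 beta and 20 gamma genes in order along each cluster. Only the intervals of Pcdhb7 and Pcdhb5 exclude 0, and neither passes after adjustment.

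By cluster, the median log2 fold change was 0.02 over the 11 alpha genes (7 above 0, 4 below), 0.12 over the 21 beta genes (14 above, 7 below) and 0.10 over the 20 gamma genes (17 above, 3 below), beside -0.004 over all genes tested (7348 above, 7514 below). Over all 52 members it was 0.10, with 38 above 0 and 14 below, and over the 5 C-type genes 0.03. Correcting each library for GC content left 27 members above 0 and 25 below, with medians of -0.04, -0.08 and 0.22 for the alpha, beta and gamma genes. The beta genes had the lowest GC content (median 46.0%, against 47.3% for the alpha and 53.1% for the gamma genes). The part of GC content in the differences was not tested further. The intervals limit how large a change these samples allow: for 50 of the 52 members the 95% interval lay within 1 on the log2 scale in both directions, the exceptions being Pcdhb5 and Pcdhb8, and for 21 members it lay within 1.5-fold. Pcdhb8 had the widest interval, -0.97 to 1.36, with 1.18, 1.29 and 0.718 FPKM in Angptl2-/- and 1.32, 1.42 and 0.355 FPKM in Angptl2+/+.

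Summed over each cluster, the alpha genes had 25.8, 27.4 and 25.5 FPKM in Angptl2-/- and 21.8, 27.2 and 27.8 FPKM in Angptl2+/+. The beta genes had 43.6, 42.4 and 47.1 FPKM in Angptl2-/- and 43.9, 42.1 and 39.4 FPKM in Angptl2+/+. The gamma genes had 59.4, 61.1 and 56.7 FPKM in Angptl2-/- and 52.3, 59.2 and 56.5 FPKM in Angptl2+/+. All 57 genes summed to 128.8, 130.9 and 129.3 FPKM in Angptl2-/- and 118.0, 128.5 and 123.7 FPKM in Angptl2+/+. Each cluster overlapped between genotypes, while the sum over all 57 was higher in every Angptl2-/- sample, by a small margin over Angptl2+/+ sample 2. Angptl2+/+ sample 1 was the lowest for the alpha, the gamma and the whole sum.

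**Figure D4:**
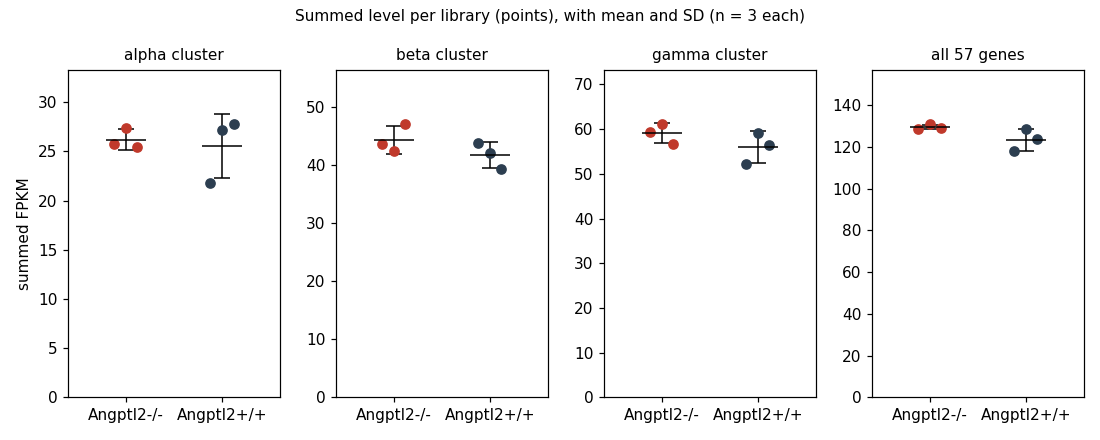
Summed FPKM of the alpha, beta and gamma genes and of all 57, with Angptl2-/- on the left and Angptl2+/+ on the right of each panel; points are libraries, lines are the mean and SD (n = 3 each), and axes start at 0. The genotypes overlap in each cluster, and the sum over all genes is 130 ± 1.09 FPKM in Angptl2-/- and 123 ± 5.27 FPKM in Angptl2+/+.

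The factors that choose and silence protocadherin promoters were described as a list. CTCF and cohesin loop an enhancer to the chosen promoter, and DNA and histone methylation keep the others closed. Of 25 such genes tested, none passed the adjusted p, and 17 were above 0 and 8 below, with a median of 0.11. The median was 0.03 with the correction for gene length (14 above, 11 below) and 0.06 with that for GC content (19 above, 6 below). At an unadjusted p under 0.05, 5 were higher, against 7.09% of all genes, and 0 lower, against 9.12%. Smchd1, a repressor of the clusters, had 2.34, 2.64 and 2.58 FPKM in Angptl2-/- and 1.82, 1.80 and 1.77 FPKM in Angptl2+/+ (log2 fold change 0.47, SE 0.133, adjusted p = 0.273, limma). Pds5b, a cohesin regulator, had 13.8, 15.8 and 16.6 FPKM in Angptl2-/- and 12.3, 10.8 and 12.6 FPKM in Angptl2+/+ (0.37, SE 0.117, adjusted p = 0.274). Smc3 and Stag2, cohesin subunits, and Nipbl, its loader, were the other 3. Trim28, the most abundant, had 31.7, 30.3 and 31.7 FPKM in Angptl2-/- and 29.8, 33.1 and 31.7 FPKM in Angptl2+/+.

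Of 22 proteins that bind, phosphorylate or cut clustered protocadherins, none passed the adjusted p, 13 were above 0 and 9 below (median 0.09). The median was 0.01 with the correction for gene length (11 above, 11 below) and 0.01 with that for GC content (12 above, 10 below). Fyn, the kinase first found to bind alpha protocadherins, had 43.8, 37.6 and 36.7 FPKM in Angptl2-/- and 45.3, 42.8 and 34.5 FPKM in Angptl2+/+ (log2 difference -0.05, adjusted p = 0.878, limma). Nlgn2, a synaptic adhesion protein, had 63.6, 56.2 and 47.1 FPKM in Angptl2-/- and 63.4, 79.1 and 73.4 FPKM in Angptl2+/+ (-0.38, adjusted p = 0.284). Adam10, the protease that cuts gamma protocadherins, had 22.8, 26.2 and 27.3 FPKM in Angptl2-/- and 19.8, 21.1 and 22.0 FPKM in Angptl2+/+ (0.27, adjusted p = 0.290). Nckap1, of the WAVE complex of actin regulators, was the most abundant at 120, 167 and 185 FPKM in Angptl2-/- and 109, 106 and 152 FPKM in Angptl2+/+.

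Among 11 non-clustered protocadherins tested the median was 0.10, with 7 above 0 and 4 below and none past the adjusted p. The median was -0.02 with the correction for gene length (5 above, 6 below) and 0.05 with that for GC content (7 above, 4 below). Pcdh11x, an X-linked one, had 4.09, 3.87 and 4.95 FPKM in Angptl2-/- and 2.87, 2.89 and 3.35 FPKM in Angptl2+/+ (log2 fold change 0.48, adjusted p = 0.273, limma). Pcdh19, which lies on the X chromosome too, had 11.04, 9.02 and 9.09 FPKM in Angptl2-/- and 7.71, 9.22 and 6.61 FPKM in Angptl2+/+ (0.31, adjusted p = 0.352). Pcdh1, the most abundant, had 35.5, 34.3 and 25.5 FPKM in Angptl2-/- and 29.2, 41.6 and 36.6 FPKM in Angptl2+/+. Of 32 other protein-coding genes within 500 kb of the 3 clusters, 23 were tested, and 6 were above 0 and 17 below (median -0.09). The median was -0.11 with the correction for gene length (8 above, 15 below) and -0.04 with that for GC content (9 above, 14 below). Pcdh1 and Pcdh12 are in both this list and that of the non-clustered protocadherins. Rell2, a receptor-like protein gene, had 7.21, 8.23 and 6.54 FPKM in Angptl2-/- and 14.5, 13.5 and 12.9 FPKM in Angptl2+/+ (log2 difference -0.89, SE 0.119, adjusted p = 0.273, limma). Ndufa2, of respiratory complex I, had 39.3, 36.4 and 22.6 FPKM in Angptl2-/- and 77.1, 79.8 and 44.7 FPKM in Angptl2+/+ (-1.03, SE 0.285, adjusted p = 0.273). For both genes all 3 Angptl2-/- libraries lay below all 3 Angptl2+/+ libraries. With Zmat2, this held for 3 of the 23 neighbours tested, against 11.8% of all genes. In 1 neighbour, Rnf14, all Angptl2-/- libraries lay above, against 10.7% of all genes.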

How the data were processed

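The authors deposited 1 FPKM value per gene and library (6 libraries, 150-bp paired-end reads). The submitters' processing notes name Bowtie 0.12.2 and mm8; the tool that counted fragments, its annotation and any strand setting are not given in sources used here. Gene identifiers matched GENCODE M21 (GRCm38) for 54495 of 54532 genes, and FPKM times its exon length gave whole fragments, to within 0.05, for 96.5 to 96.7% of values above 0. Coordinates are those of GENCODE M21, and no column was left out.

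limma 3.58.1 (R 4.3.3) was fitted to log2(FPKM + 0.1), with an intensity trend, two-sided, for the 14862 genes averaging at least 0.5 FPKM, with p-values adjusted by Benjamini-Hochberg over that set and a threshold of 0.05. Fold changes on this scale understate those of low genes. The code was tested on simulated data with less spread than these libraries, which checks the code and not what this design could detect. Alternatives covered pseudocounts, filters, scaling, moderation, voom on the recovered fragments, corrections for GC content and gene length, the replicate block and leaving out each library.

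The members and lists were chosen with earlier results of these data known. Named in full were the 3 most abundant and the 3 smallest-p members of each cluster, the C-type genes, Fyn, Angptl2, and of each other list the most abundant gene and the 2 of smallest p; of the neighbours, the 2 with the smallest p. Pcdhb8, Pcdhb6, Pcdha4, Pcdhga10, Pcdhb1, Pcdha8, Pcdhb12 and the separated genes were named after their values were seen. Python 3.11.15 with pandas 2.3.3, numpy 2.4.6 and matplotlib 3.10.9 drew the figures.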

Additional observations from a re-analysis of the deposited data

How the results depend on the processing

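Under all 20 alternatives no member passed the adjusted p, whose lowest value was 0.233. Of 52 members, 14 stayed above 0 and 4 below 0 in all of them. The GC correction gave 2 members higher unadjusted, and 3 with the replicate block added, against 1. With the GC correction alone these were Pcdhb7 and Pcdhga11, and with the block Pcdhga3, Pcdhga8 and Pcdhga11, where Pcdhb7 missed the unadjusted p (0.0534 by limma). Over all 14862 genes the GC correction gave 409 higher unadjusted, and 458 with the block, against 1054 without the correction. The share of 7.09% over all genes therefore does not apply to the corrected counts. The corrected median was -0.076 for the beta and 0.22 for the gamma genes with or without that block. The replicate numbers did not pair the samples (correlations of same-numbered deviations 0.04, -0.07 and 0.16), and the replicate block alone left 1 member higher and 1 lower unadjusted. Median-ratio scaling left 1 member (not 2) with every Angptl2-/- library below every Angptl2+/+ library. Leaving out 1 library at a time gave 1 to 2 members higher and 0 to 1 lower unadjusted. Over all 14862 genes it gave 465 to 1373 higher and 790 to 1656 lower. Between 7 and 12 members were then entirely above and 2 to 7 entirely below. Separation is easier with 2 libraries in a genotype, and its share over all genes was not computed there, so these counts describe the members only. The medians were -0.045 to 0.096 for the alpha, 0.054 to 0.128 for the beta and 0.091 to 0.165 for the gamma genes. The alpha median was below 0 without Angptl2-/- sample 2. Pcdhb5 missed the unadjusted p without Angptl2-/- sample 3, Angptl2+/+ sample 1 or Angptl2+/+ sample 3. Dividing by the unshared exon length gave median levels of 3.18, 1.83 and 4.17 FPKM for the alpha, beta and gamma genes, against 1.151, 1.61 and 1.74 FPKM. With 3 libraries a genotype, the depth of the low genes (from 312 fragments in all for Pcdhb2 among the tested members) limits what could be seen.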
